A study of Mus musculus with 12 samples.

Results

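Cells of C8-D1A, an established mouse line catalogued as astrocytes, were kept for 24 h under 15% CO2 or for 24 h in medium with 20 mM lactic acid, and their RNA was compared directly, treatment against treatment. The comparison took 6 of the 12 libraries of the series, 3 for each treatment. It covered every gene with at least 1 TPM (a share of the library per unit of transcript length, scaled to the same total in each library) in at least 3 of these 6 libraries, which was 12006 of the 21959 genes in the deposited table. Untreated controls, given in the labels as 37 °C and 5% CO2, together with cells whose medium held NaHCO3 at 0.2 g/L, make up the other 6 libraries and entered no test reported here unless a sentence says so. In the sample descriptions the digit of the formula CO2 and the catalogue number of the reagents rise by 1 with each replicate, which was read as a copying slip, since the treatment label of all 3 CO2 samples is 15% CO2 and all 3 lactic acid descriptions give 20 mM. The labels give neither the pH reached under either treatment nor the incubator CO2 of the lactic acid cells, so the treatments could not be matched by pH. They do not say that the replicates of a group came from separate cultures, and p-values then measure the spread between these libraries, which may be technical. Libraries are called CO2 1 to 3 and lactic acid 1 to 3.

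CO2 and lactic acid both acidify a culture, by different routes. CO2 crosses membranes freely and is hydrated, with the help of carbonic anhydrases, to a proton and bicarbonate on either side of the membrane. Lactic acid enters cells as lactate together with a proton through monocarboxylate transporters, and lactate is itself a fuel that lactate dehydrogenases turn into pyruvate.

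The filter on low values had no natural edge: 97 genes had a third-highest value of 1 to 1.1 TPM and 105 of 0.9 to 1 TPM. Galnt16 at 1.002 and Chrd at 1.003 TPM lay just inside it, and Kirrel3 at 0.9999 and Il1a at 0.999 TPM just outside. Of the 9953 genes left out, 4716 were listed at 0 TPM in all 6 libraries.

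Markers of the labelled cell type were present in part. Of 25 astrocyte identity genes 10 stood at 10 TPM or more in all 6 libraries, among them the calcium-binding protein S100b (37.8 to 49.8 TPM), the glial transcription factor Sox9 (38.1 to 52.5 TPM) and the intermediate filament Vim (1327 to 1774 TPM). The defining genes of mature astrocytes were close to absent: Gfap lay at 0.461 to 1.19 TPM, the water channel Aqp4 at no more than 0.137 TPM, and the glutamate transporters Slc1a2 and Slc1a3 at no more than 0.355 and 0.021 TPM. Muscle genes were present under both treatments, with 17 of 38 members of a myogenic list at 10 TPM or more in all 6 libraries. The cells are called here by the name of the line. Several markers of other cell types were near 0, with Snap25 of neurons at no more than 0.0315 TPM and Pecam1 of endothelium at no more than 0.206 TPM. C1qa, P2ry12 and Tyrobp of microglia were at 0 in all 6 libraries. Others were not near 0, among them Nefm of neurons at 332 to 401 TPM and Flt1 of endothelium at 14.4 to 17.9 TPM. Sox10 of the oligodendrocyte lineage was at 117.9 to 141.5 TPM.

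Each library listed 15098 to 15419 genes above 0 TPM, and Spearman correlations across genes were 0.978 to 0.998 between pairs. Lactic acid 3 stood apart: the first principal component held 45.1% of the variance among the 6 libraries and put lactic acid 3 at 26.2, against -3.70 and -2.42 for lactic acid 1 and 2 and -6.13, -21.3 and 7.32 for CO2 1 to 3. The second component, with 31.6%, held CO2 1 to 3 at 6.59 to 13.7, lactic acid 1 and 2 at -16.6 and -15.5, and lactic acid 3 at 0.417. Summed TPM of the 13 mitochondrially encoded mRNAs varied along the same line, at 203698, 156010 and 248003 under CO2 and 159269, 164300 and 278249 with lactic acid (exact two-sided permutation test, p = 1, where 3 against 3 cannot go below 0.1). Summed TPM of 70 ribosomal protein mRNAs ran the other way, at 71724, 80702 and 59897 against 88334, 85825 and 53059 (exact permutation p = 0.7). The part of these shifts in the results was not tested beyond leaving lactic acid 3 out, and calls that this changes are given both ways, for most lists in the last paragraph.

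Of the 12006 genes, 118 (0.983%) passed limma's test at a Benjamini-Hochberg adjusted p of 0.05. These were 74 genes higher under CO2 (0.616%) and 44 lower under CO2, which is to say higher with lactic acid (0.366%). Differences are given as CO2 minus lactic acid on the log2(TPM + 1) scale with the standard error (SE) of the fit. Their size reached 1 in 30 of the 118 (0.25%), and the smallest was 0.35. In all 118 genes the libraries of the groups did not overlap, a pattern that 24.4% of all genes tested showed, 15.5% with CO2 above and 8.85% with CO2 below. The threshold cut through a dense field, since a further 135 genes had an adjusted p from 0.05 to 0.06. The median difference over all genes was 0.04.

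The number of calls depended on single libraries. Without lactic acid 3 it was 270, with 157 (1.31%) higher under CO2 and 113 (0.941%) lower, holding 114 of the 118. Without CO2 3 it was 43, without lactic acid 1 or lactic acid 2 it was 9 each time, and without CO2 1 or CO2 2 it was 0, with 1366 and 1727 genes at an unadjusted p under 0.05. Each gene described below as higher or lower was called from all 6 libraries and not from the 5 left without CO2 1 or CO2 2. Adding 5 other libraries to estimate the spread (controls 2 and 3 and the 3 low-NaHCO3 libraries) gave 575 calls, with 371 higher and 204 lower, and held 115 of the 118, while adding control 1 too gave 41, with 34 higher and 7 lower. Control 1 listed 17319 genes above 0 TPM against 14531 to 15419 in the other 11 libraries. Median-of-ratios scaling moved the balance from 74 higher and 44 lower to 132 and 131, and quantile normalization to 124 and 118.

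**Figure D1:**
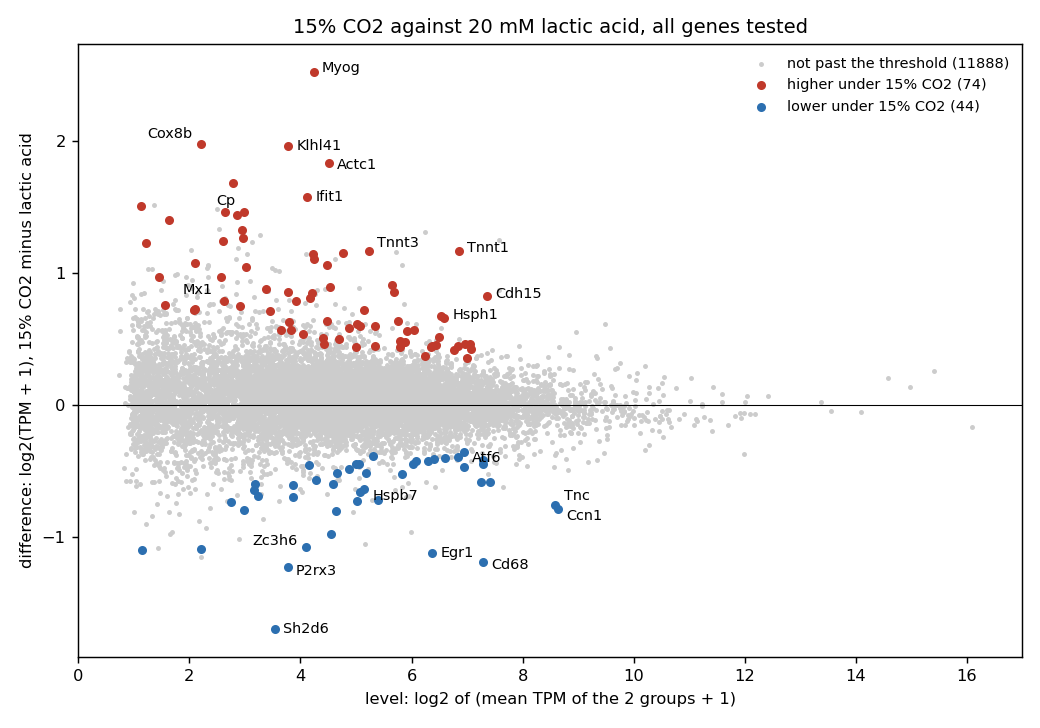
Difference in log2(TPM + 1), 15% CO2 minus lactic acid, against level for the 12006 genes tested, with the 74 genes higher under CO2 in red and the 44 lower in blue. Myog lies highest at 2.52 and Sh2d6 lowest at -1.70, and the most abundant genes lie near 0.

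Values of control 2 and control 3, which were not in the fit of the 6 libraries, showed on which side the untreated cells lay. For the 74 genes higher under CO2, both controls lay between the groups in 32, within or beyond the lactic acid range in 15 and within or beyond the CO2 range in 10. For the 44 genes lower under CO2, both controls lay within or beyond the CO2 range in 28, between the groups in 9 and within or beyond the lactic acid range in 1. Genes of muscle cells held the highest differences called and are described first.

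Myogenin and several genes of skeletal muscle differentiation were higher under 15% CO2 than with lactic acid. Of 29 tested members of the myogenic list, written for muscle regulators, sarcomere proteins and fusion factors, 8 were higher under CO2 and 1 was lower, where 0.616% and 0.366% of all genes were. All 3 CO2 libraries lay above all 3 lactic acid libraries in 19 of the 29 and below them in 3, and the median difference was 0.49. The calls numbered 10 higher and 1 lower without lactic acid 3, 5 in all without lactic acid 1, 4 without lactic acid 2, and 0 without CO2 1 or CO2 2. The list was written with earlier results on these cells known, so its direction is not independent evidence. Skeletal muscle forms when regulators of the MyoD family drive myoblasts out of the cell cycle and into fusion, and the same cells then switch on sarcomere genes. In bulk RNA, fewer cells of a kind and less RNA per cell cannot be told apart.

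Myog (ENSMUSG00000026459), the myogenin that commits myoblasts to differentiation, stood at 32.4, 33.3 and 27.3 TPM in CO2 1 to 3 and at 3.56, 3.87 and 6.71 TPM in lactic acid 1 to 3. The lowest CO2 library held far more than the highest lactic acid library, which was lactic acid 3. The difference of 2.52 ± 0.20 was the highest of any gene called (adjusted p = 0.00769, and 0.000843 without lactic acid 3). Controls 2 and 3, at 8.92 and 10.4 TPM, lay between the groups, and the low-NaHCO3 libraries, at 0.355, 0.335 and 0.892 TPM, below both. Klhl41, a kelch protein that stabilises the thin filament, was at 20.0, 24.3 and 17.5 TPM against 3.43, 3.56 and 7.23 TPM, a difference of 1.96 ± 0.25 (adjusted p = 0.0304). Its lactic acid values again split, with lactic acid 3 above the other pair and all below CO2. Cox8b, the heart and muscle form of a cytochrome oxidase subunit, was at 6.82, 6.95 and 5.12 TPM against 1.64, 0.595 and 0.498 TPM, a difference of 1.97 ± 0.24 (adjusted p = 0.026). There the highest lactic acid library was lactic acid 1, alone of its group at 1 TPM or more. Cox8b thus met the filter through its CO2 libraries, which in part set its direction.

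Genes of the sarcomere, the contractile unit of muscle, were among those with the smallest adjusted p. Actc1, the cardiac form of alpha-actin that embryonic skeletal muscle also makes, stood at 36.4, 36.2 and 30.9 TPM under CO2 and 8.78, 7.67 and 10.6 TPM with lactic acid, a difference of 1.83 ± 0.13 (adjusted p = 0.00413). Tnnt1, the slow skeletal troponin T, was at 163, 166 and 149 TPM against 69.4, 68.9 and 72.6 TPM, a difference of 1.17 ± 0.07 (adjusted p = 0.00413). Tnnt3, its fast skeletal counterpart, was at 51.3, 54.2 and 47.4 TPM against 19.8, 24.1 and 22.8 TPM, with the same difference of 1.17 ± 0.09 (adjusted p = 0.00769). In each of these the groups lay well apart and lactic acid 3 sat with its group. Controls 2 and 3 lay at 79.1 and 93.4 TPM for Tnnt1, between the groups, and at 18.2 and 21.2 TPM for Tnnt3, near the lactic acid libraries. Myog, Actc1, Tnnt1 and Tnnt3 were also called without lactic acid 1 and without lactic acid 2. Myl1, an alkali light chain of fast muscle myosin, differed by 1.44 ± 0.23 (adjusted p = 0.0486) and Cdh15, the M-cadherin that joins myoblasts, by 0.82 ± 0.08 at 190 to 226 against 116 to 120 TPM (adjusted p = 0.0161).

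Other members of the list lay on either side of the threshold. Here and below, genes with an adjusted p above 0.05 were chosen after their values were seen, unless they belong to the fixed panel of 31 genes. Mymk, the membrane protein myomaker that drives fusion, was at 11.4, 13.2 and 12.9 TPM against 3.65, 3.54 and 6.999 TPM, a difference of 1.29 ± 0.22 (adjusted p = 0.0506, and 0.00402 without lactic acid 3). Mylpf, a regulatory light chain of fast myosin, was at 106, 140 and 76.6 TPM against 46.6, 44.1 and 34.9 TPM (1.31 ± 0.22, adjusted p = 0.0506, and 0.0537 without lactic acid 3). The early regulator Myf5 had a smaller difference, at 140, 146 and 141 against 119, 120 and 118 TPM (0.26 ± 0.06, adjusted p = 0.0842), and Myf6 the opposite sign, at 44.2 to 47.4 against 50.2 to 52.7 TPM (-0.17 ± 0.06, adjusted p = 0.22). Hspb7, a small heat shock protein of heart and skeletal muscle, was the member lower under CO2, at 25.5, 25.2 and 29.4 against 40.4, 41.3 and 44.3 TPM (-0.64 ± 0.08, adjusted p = 0.0307). Controls 2 and 3 held 17.4 and 17.004 TPM of it, less than either treatment. Acta2, the smooth muscle actin, was at 829 to 927 against 510 to 609 TPM (0.61 ± 0.10, adjusted p = 0.0506, and 0.0367 without lactic acid 3). It made up most of the endothelial and mural marker sum, at 889 to 988 against 577 to 672 TPM. In that list Pecam1 was near 0 and Flt1 was at 14.4 to 17.9 TPM. Of its 6 tested members 0 were called higher and 1 lower under CO2, where 0.616% and 0.366% of all genes were. Without lactic acid 3 the calls were 1 higher and 0 lower, where 1.31% and 0.941% of all genes were.

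**Figure D2:**
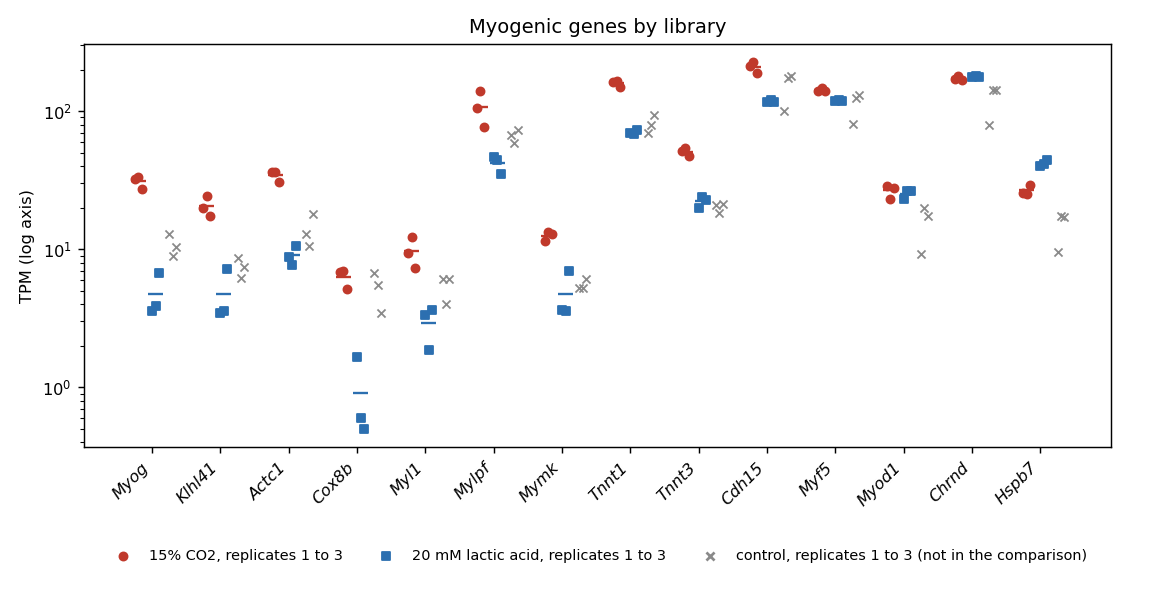
TPM (log axis) of 14 myogenic genes in each library, with CO2 in red, lactic acid in blue, horizontal bars at the means of 3 libraries, and the controls, which were not in the comparison, as grey crosses. Myog, Klhl41, Actc1 and Tnnt1 are separated by group, Myf5 narrowly so, Myod1 and Chrnd overlap, and Hspb7 lies the other way.

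Some genes known from muscle that the list does not hold were also called, and no count over such genes was made. Asb2, part of a ubiquitin ligase of muscle, was at 9.91, 10.4 and 8.25 TPM against 2.39, 1.69 and 2.83 TPM, a difference of 1.68 ± 0.16 (adjusted p = 0.0135). Among others chosen after their values were seen, Ryr1, the calcium release channel of the sarcoplasmic reticulum, differed by 1.04 ± 0.13 (adjusted p = 0.0304), Tnni2, the fast troponin I, by 1.07 ± 0.12 (adjusted p = 0.0201), and Actn3, the fast alpha-actinin, by 0.79 ± 0.12 (adjusted p = 0.0475). Hfe2, the haemojuvelin of muscle and liver, stood at 32.9, 43.4 and 32.7 TPM against 16.5, 14.5 and 16.1 TPM (1.15 ± 0.12, adjusted p = 0.0201). Also chosen from the calls, Dok7, an adaptor of the neuromuscular junction, differed by 0.87 ± 0.10 (adjusted p = 0.0233), the acetylcholine receptor subunit Chrnb1 by 0.51 ± 0.06 (adjusted p = 0.0247) and the co-receptor Cdon by 0.44 ± 0.07 (adjusted p = 0.0441).

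Promoter windows are shown for a pair of these genes because 8 members of the list were called higher, with the E-box CAGCTG, a form that muscle regulators bind, in capitals. Windows run from 250 bases before to 50 after a RefSeq start (GRCm38.p6), are written 5′ to 3′ on the strand of the gene, and were searched on both strands. The windows of 24 of the listed genes were found, and CAGCTG was in 10 of the 24 (41.7%), against 18.3% of 27025 genes with a promoter. It was in 13 of 50 genes called higher under CO2 (26%) and 11 of 31 called lower (35.5%) whose windows were found.

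Klhl41 (GRCm38.p6, chr2:69669870-69670169, plus strand): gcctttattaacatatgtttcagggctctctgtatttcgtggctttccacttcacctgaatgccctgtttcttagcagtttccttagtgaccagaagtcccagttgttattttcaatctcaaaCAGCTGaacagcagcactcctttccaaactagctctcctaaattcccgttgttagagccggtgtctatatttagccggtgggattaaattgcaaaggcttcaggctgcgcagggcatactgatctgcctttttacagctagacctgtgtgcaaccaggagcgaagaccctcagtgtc

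Cox8b (GRCm38.p6, chr7:140900397-140900696, minus strand): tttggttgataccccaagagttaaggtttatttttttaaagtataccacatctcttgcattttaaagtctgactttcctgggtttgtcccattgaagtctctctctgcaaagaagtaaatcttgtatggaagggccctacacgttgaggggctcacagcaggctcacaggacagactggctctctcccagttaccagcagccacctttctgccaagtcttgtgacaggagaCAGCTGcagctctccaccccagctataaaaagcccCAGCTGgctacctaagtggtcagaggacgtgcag

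The Klhl41 window holds CAGCTG at 127 bases before the start, and the Cox8b window at 19 before and 16 after it. Asb2 and Myl1 also had a match, and the windows of Myog, Actc1 and Tnnt1 held none of the motifs searched. A match is a description of the letters and does not show binding.

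Most interferon response genes had all CO2 libraries above all lactic acid libraries, and few of them passed the test. Interferons signal through JAK kinases to STAT factors and IRF9, which switch on antiviral effectors through the interferon-stimulated response element. Of 36 tested effectors 3 were higher under CO2 and 0 lower, and of 11 tested interferon-inducible GTPases 2 were higher and 0 lower. Over all genes 0.616% were higher and 0.366% lower. All 3 CO2 libraries lay above all 3 lactic acid libraries in 27 of the 36 and in 10 of the 11, against 15.5% of all genes, and below them in 0 of either. The median differences were 0.67 and 0.79. Calls among the effectors numbered 6 without lactic acid 3 and 6 without CO2 3, and were 0 without CO2 1, CO2 2, lactic acid 1 or lactic acid 2. Among the GTPases they numbered 5 without lactic acid 3, 1 without CO2 3 and 0 without any other library. With the spread estimated from 11 libraries, 21 of the 36 and 9 of the 11 were higher, where 3.09% of all genes were, and with control 1 added the calls were 3 and 1. CO2 2 had the highest effector sum, 1397 TPM, beside 1004 and 820 TPM in CO2 1 and CO2 3 and 641 to 772 TPM with lactic acid.

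Ifit1 (ENSMUSG00000034459), which binds viral RNA, stood at 26.4, 30.1 and 18.7 TPM under CO2 and at 5.94, 7.82 and 9.52 TPM with lactic acid. The groups did not overlap, and controls 2 and 3, at 3.78 and 5.48 TPM, lay below the lactic acid range. The difference was 1.57 ± 0.21 (adjusted p = 0.0324). Ifit3b, a near-copy of Ifit3 of the same family, was at 9.45, 12.9 and 8.03 TPM against 3.06, 3.32 and 3.76 TPM (1.33 ± 0.17, adjusted p = 0.0304), and reads shared between the copies cannot be told apart here. Mx1, a dynamin-like antiviral GTPase, was at 6.70, 8.24 and 5.55 TPM against 2.69, 3.05 and 3.19 TPM (0.97 ± 0.14, adjusted p = 0.0438). CO2 2 was the highest library for all 3 of these genes.

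Other effectors had differences of similar size and missed the threshold, and CO2 2 was the highest library for each of those described here. Oas2, which makes the activator of RNase L, was at 6.68, 10.99 and 4.56 TPM against 2.04, 1.88 and 1.69 TPM, a difference of 1.48 ± 0.26 with an adjusted p of 0.0511. Isg15, a ubiquitin-like modifier and the most abundant of the effectors named, was at 65.0, 113 and 42.7 TPM against 43.8, 47.8 and 29.8 TPM, so that its groups overlapped (0.76 ± 0.35, adjusted p = 0.318). Usp18, the protease that removes Isg15, was at 10.2, 13.7 and 7.36 TPM against 3.75, 4.68 and 3.79 TPM (1.14 ± 0.20, adjusted p = 0.0533).

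GTPases that act on the vacuoles of intracellular pathogens held 2 of the calls. Irgm2 stood at 24.8, 29.1 and 20.1 TPM under CO2 and 9.51, 9.69 and 13.7 TPM with lactic acid, with lactic acid 3 the nearest to the CO2 range (1.104 ± 0.18, adjusted p = 0.0486). Gbp9, a guanylate-binding protein, was at 2.28, 2.74 and 2.80 TPM against 0.648, 0.704 and 1.21 TPM (0.97 ± 0.16, adjusted p = 0.0488). It reached 1 TPM in lactic acid 3 alone of its group, and so met the filter through CO2. Its direction was thus in part set by the filter. Gbp and Irg genes have close copies, and how shared reads were divided is not given in the sources used here. Iigp1 differed by 1.24 ± 0.23 (adjusted p = 0.0534), and 0.0448 without lactic acid 3.

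Upstream interferon factors held no call with all 6 libraries. Of 21 receptors and signalling factors 0 passed limma's test in either direction (7 at an unadjusted p under 0.05). In 9 of the 21 the groups were apart with CO2 above, against 15.5% of all genes. When the spread came from 11 libraries 4 were higher, where 3.09% of all genes were, and with control 1 added there was 1 call. Irf7, the factor that amplifies interferon transcription and is itself induced, was at 13.2, 12.5 and 8.02 TPM against 2.77, 4.76 and 5.17 TPM (1.23 ± 0.24, adjusted p = 0.0623). Stat2 was at 38.2, 36.6 and 29.6 TPM against 19.7, 22.8 and 23.9 TPM (0.63 ± 0.12, adjusted p = 0.0571). The 16 class I antigen presentation genes had 0 calls by limma, 3 at an unadjusted p under 0.05, and a median of 0.20. The interferon-induced chemokine Cxcl10 stood at 11.4, 7.90 and 9.82 against 5.52, 6.18 and 5.57 TPM (0.65 ± 0.13, adjusted p = 0.0677).

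**Figure D3:**
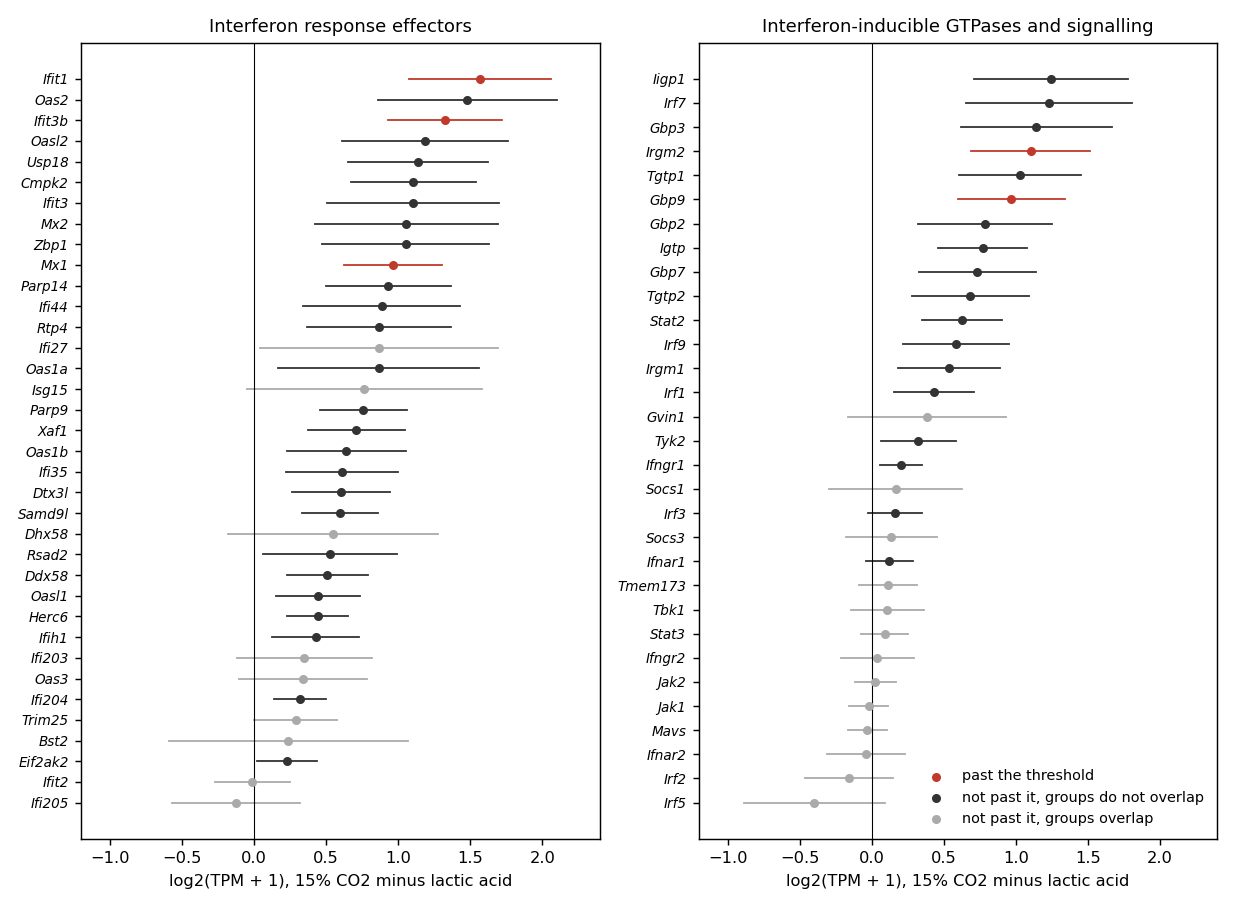
Difference in log2(TPM + 1), 15% CO2 minus lactic acid, with its 95% confidence interval for 36 interferon effectors (left) and for most of the GTPases and signalling factors tested (right). Genes past the threshold are red, genes short of it whose groups do not overlap are black and the others grey. Of the effectors 34 lie above 0 and Ifit1 is the highest at 1.57, whereas receptors and kinases lie near 0.

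The interferon-stimulated response element, searched as GAAA, any 2 bases and GAAA again, is shown in capitals in the windows of the effector and the GTPase with the highest differences called in each list. It was in the windows of 13 of 24 effectors found (54.2%) and of 8 of 8 GTPases found (100%), against 3.99% of all genes with a promoter. Among called genes whose windows were found, it was in 5 of 50 higher under CO2 (10%) and 4 of 31 lower (12.9%). Its letters thus occurred among called genes of both directions, and a match does not show that the element acts there.

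Ifit1 (GRCm38.p6, chr19:34640639-34640938, plus strand): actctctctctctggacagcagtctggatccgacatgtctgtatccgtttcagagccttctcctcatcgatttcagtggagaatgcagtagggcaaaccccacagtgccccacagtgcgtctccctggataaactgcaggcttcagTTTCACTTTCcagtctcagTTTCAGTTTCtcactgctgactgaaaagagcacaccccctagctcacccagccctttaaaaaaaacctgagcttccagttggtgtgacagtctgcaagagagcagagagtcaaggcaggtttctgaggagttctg

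Irgm2 (GRCm38.p6, chr11:58214727-58215026, plus strand): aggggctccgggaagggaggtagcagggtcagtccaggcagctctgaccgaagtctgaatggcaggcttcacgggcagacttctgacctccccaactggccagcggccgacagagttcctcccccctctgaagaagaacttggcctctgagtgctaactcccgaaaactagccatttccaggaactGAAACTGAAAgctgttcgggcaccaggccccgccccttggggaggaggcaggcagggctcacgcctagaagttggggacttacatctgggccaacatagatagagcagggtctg

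Ifit1 holds the element at 104 and 85 bases before the start, on the strand opposite to the gene, and Irgm2 at 64 bases before it.

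The lowest differences called belonged to genes of varied function, each higher with lactic acid. Sh2d6 (ENSMUSG00000052631), an SH2-domain adaptor protein, stood at 3.78, 4.603 and 5.14 TPM under CO2 and at 17.4, 16.7 and 16.2 TPM with lactic acid, with no overlap and a difference of -1.70 ± 0.11 (adjusted p = 0.00413). Controls 2 and 3 were at 2.72 and 3.50 TPM, below both groups. P2rx3 (ENSMUSG00000027071), an ATP-gated cation channel of sensory neurons whose gating is sensitive to protons, was at 7.40, 6.97 and 7.08 TPM against 19.5, 16.7 and 18.1 TPM (-1.23 ± 0.08, adjusted p = 0.00413). It was the single member called of 7 tested genes for proton-sensing receptors and channels, where 0.983% of all genes were called. P2rx3 was also called without lactic acid 1 and without lactic acid 2. The G protein-coupled proton sensor Gpr65 was at 0 in all 6 libraries and Gpr4 at no more than 0.640 TPM. P2rx7, a related ATP-gated channel in the same list, had the opposite sign at 531, 508 and 514 against 386, 405 and 405 TPM (0.38 ± 0.07, adjusted p = 0.0571, and 0.0448 without lactic acid 3).

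Cd68 (ENSMUSG00000018774), a glycoprotein of lysosomes and a macrophage marker, was at 99.8, 80.4 and 99.9 TPM under CO2 and at 201, 194 and 251 TPM with lactic acid. Every lactic acid library was above every CO2 library, and controls 2 and 3, at 61.9 and 65.7 TPM, were below both groups. The difference was -1.19 ± 0.13 (adjusted p = 0.0201). The summed TPM of 15 microglia and macrophage markers was 166 to 182 under CO2 and 289 to 327 with lactic acid, while 12 of the 15 stayed under 1 TPM in all 6 libraries, 6 of them at 0 (P2ry12, C1qa, C1qb, C1qc, Tyrobp and Adgre1). The part of other cells in this value was not tested. Of 42 lysosomal genes Cd68 was the 1 called, where 0.983% of all genes were. Nlrp2, of the inflammasome receptor family, was at 2.45, 1.66 and 1.73 TPM against 6.07, 5.86 and 4.04 TPM (-1.10 ± 0.17, adjusted p = 0.0486), and Zc3h6, a zinc finger protein, at 10.5, 9.90 and 9.66 TPM against 21.0, 21.5 and 24.6 TPM (-1.08 ± 0.09, adjusted p = 0.00769).

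Immediate early genes, which mitogens and stress switch on within minutes through MAP kinases, included 3 that were lower under CO2 than with lactic acid. Of 30 tested members those 3 were Egr1, Egr2 and Dusp5 and 0 were higher, and all 3 CO2 libraries were below all 3 lactic acid libraries in 16 of the 30 and above them in 0, where 8.85% and 15.5% of all genes were. The median difference was -0.26, and over all genes 0.366% were called lower and 0.616% higher. With the spread from 11 libraries 11 were lower, where 1.7% of all genes were, and with control 1 added limma called 0. Calls fell to 1 without CO2 3 or lactic acid 2 and to 0 without CO2 1, CO2 2 or lactic acid 1.

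Egr1 (ENSMUSG00000038418), a zinc finger transcription factor, stood at 51.1, 48.1 and 53.9 TPM under CO2 and 113, 96.4 and 129 TPM with lactic acid (-1.12 ± 0.11, adjusted p = 0.0168). Controls 2 and 3 held 38.7 and 37.4 TPM, below both groups, and control 1 held 132 TPM. Egr2 of the same family was at 3.61, 3.84 and 4.73 TPM against 7.78, 6.74 and 7.75 TPM (-0.74 ± 0.12, adjusted p = 0.0486, and 0.0537 without lactic acid 3). Dusp5, a phosphatase that switches ERK off in the nucleus, was at 103, 103 and 99.2 TPM against 142, 141 and 142 TPM (-0.47 ± 0.06, adjusted p = 0.026). These were narrow ranges: the lactic acid libraries of Dusp5 differed by about 1 TPM. Fos was at 4.91, 3.19 and 3.58 TPM against 10.6, 7.01 and 9.22 TPM (-1.02 ± 0.18, adjusted p = 0.0516), and Dusp1 at 23.8, 20.8 and 26.5 TPM against 36.0, 34.9 and 41.1 TPM (-0.64 ± 0.11, adjusted p = 0.0506). Zfp36, a panel gene that destabilises mRNAs, overlapped between the groups (-0.37 ± 0.16, adjusted p = 0.292).

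**Figure D4:**
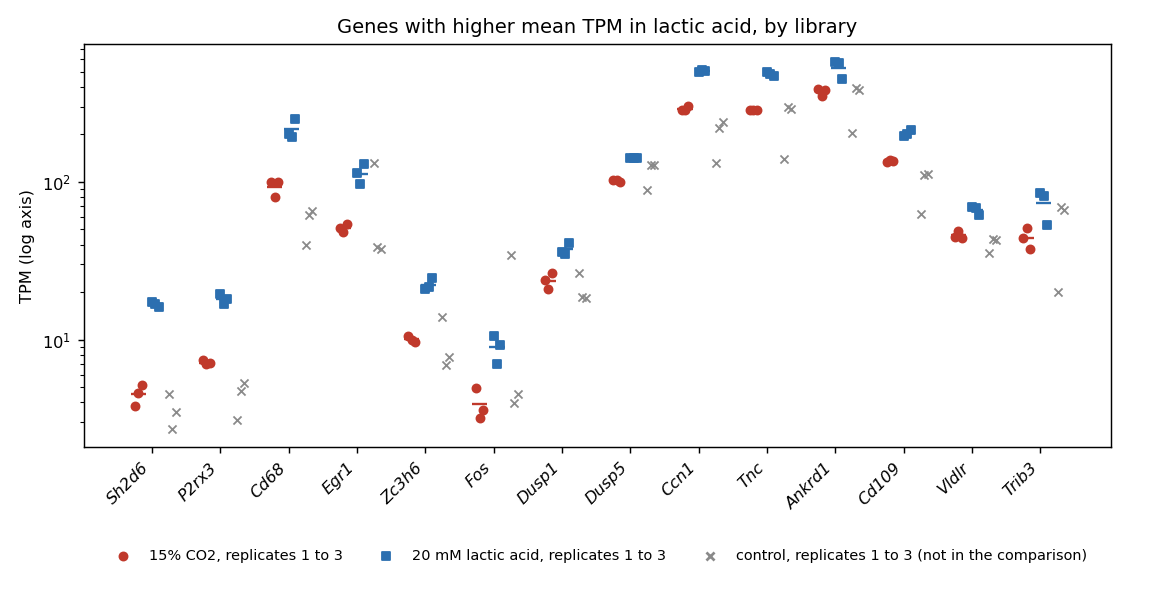
TPM (log axis) of 14 genes whose mean was higher with lactic acid in each library, with CO2 in red, lactic acid in blue, horizontal bars at the means of 3 libraries and the controls as grey crosses. Groups do not overlap in any of the 14, and the control symbols of Sh2d6, P2rx3 and Cd68 at replicates 2 and 3 lie below both groups.

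Adhesion and matrix genes split by gene. Ccn1 (ENSMUSG00000028195), a secreted matricellular protein and a standard target of YAP and TAZ, was at 284, 285 and 304 TPM under CO2 and 498, 511 and 501 TPM with lactic acid (-0.79 ± 0.07, adjusted p = 0.0104). It was the single call among 22 genes of the YAP and TAZ list, of which 6 lay with CO2 below and 4 with CO2 above, with a median of -0.04. Over all genes 0.983% were called, 8.85% lay with CO2 below and 15.5% with CO2 above. Ankrd1, another target, was at 389, 353 and 381 TPM against 572, 567 and 448 TPM (-0.49 ± 0.11, adjusted p = 0.0941, and 0.024 without lactic acid 3). Of 31 matrix genes 1 was higher under CO2 and 1 lower, where 0.616% and 0.366% of all genes were. Tnc, the matrix glycoprotein tenascin C, was at 285, 285 and 284 TPM against 497, 485 and 470 TPM (-0.76 ± 0.07, adjusted p = 0.0104). Col3a1, a fibrillar collagen chain, went the other way at 39.9, 46.9 and 41.3 TPM against 27.2, 27.2 and 22.6 TPM (0.71 ± 0.10, adjusted p = 0.0405). Fibronectin, Fn1, was at 602, 568 and 617 against 661, 672 and 839 TPM (-0.27 ± 0.11, adjusted p = 0.286).

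ACATTCC, the letters bound by the TEAD partners of YAP and TAZ, was in the windows of 7 of 16 genes of that list found (43.8%), against 4.47% of all genes with a promoter. Among called genes whose windows were found, it was in 5 of 50 higher under CO2 (10%) and 5 of 31 lower (16.1%). The window of Ccn1 is shown because it is the gene of the list that was called, and it holds the letters at 104 bases before the start.

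Ccn1 (GRCm38.p6, chr3:145649936-145650235, minus strand): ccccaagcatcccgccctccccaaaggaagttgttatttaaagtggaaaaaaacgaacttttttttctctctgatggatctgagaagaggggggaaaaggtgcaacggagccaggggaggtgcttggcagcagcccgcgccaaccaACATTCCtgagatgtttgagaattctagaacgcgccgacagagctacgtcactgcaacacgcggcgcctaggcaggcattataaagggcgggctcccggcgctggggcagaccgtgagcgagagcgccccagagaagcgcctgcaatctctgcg

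Stress pathway lists are set beside the shares over all genes tested. With all 6 libraries 0.983% of these were called, 15.5% lay with CO2 above and 8.85% with CO2 below. Genes of the amino acid response, which ATF4 controls when the integrated stress response slows translation, had 1 call higher (Atf5) and 1 lower (Vldlr) of 32, a median of -0.25 and 17 members with CO2 below, against 3 with CO2 above. Without lactic acid 3 the calls were 1 higher and 8 lower, where 1.31% and 0.941% of all genes were. Without CO2 3, lactic acid 1 or lactic acid 2 the calls were 0. Vldlr, a lipoprotein receptor, was at 44.5, 48.8 and 43.9 TPM against 69.2, 68.2 and 61.3 TPM (-0.52 ± 0.08, adjusted p = 0.0438). The asparagine synthetase Asns was at 313, 322 and 317 TPM against 479, 448 and 396 TPM (-0.47 ± 0.09, adjusted p = 0.0571, and 0.024 without lactic acid 3), with lactic acid 3 again nearest to CO2. Trib3, a pseudokinase induced by ATF4, was at 44.0, 50.9 and 37.8 TPM against 85.0, 81.3 and 53.4 TPM (-0.70 ± 0.19, adjusted p = 0.13, and 0.0281 without lactic acid 3). Aldh1l2, a mitochondrial folate enzyme outside the list that was chosen after its values were seen, was lower under CO2 at 121, 113 and 128 TPM against 182, 177 and 187 TPM (-0.59 ± 0.07, adjusted p = 0.026). Atf5 was at 112, 122 and 105 TPM against 75.4, 71.8 and 63.9 TPM (0.67 ± 0.09, adjusted p = 0.0324).

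Chaperone genes can be set beside all genes tested, of which 0.983% were called, 15.5% had CO2 above and 8.85% had CO2 below. In the list of endoplasmic reticulum (ER) chaperones and the unfolded protein response 11 of 25 members had all CO2 libraries above and 1 had them below, with a median of 0.17. Manf, a secreted ER stress protein, was the member called higher, at 93.9, 95.6 and 92.2 TPM against 70.1, 71.4 and 64.8 TPM (0.45 ± 0.06, adjusted p = 0.0438), and the ER stress sensor Atf6 the member called lower, at 106, 106 and 108 TPM against 137, 134 and 140 TPM (-0.35 ± 0.06, adjusted p = 0.0488). Sdf2l1, a partner of the chaperone BiP, had a larger difference and a wider spread, at 70.5, 89.8 and 55.9 TPM against 36.8, 34.2 and 23.9 TPM (1.16 ± 0.21, adjusted p = 0.0534). Of 21 cytosolic heat shock genes Hsph1, which helps Hsp70 to exchange its nucleotide, was the single call at 114, 118 and 118 TPM against 74.0, 75.6 and 72.0 TPM (0.66 ± 0.06, adjusted p = 0.0104). Controls 2 and 3 held 122 and 119 TPM of Hsph1 and 128 and 125 TPM of Manf, above the CO2 range. In this list 8 members had CO2 above and 0 below, and the median was 0.14.

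The heat shock element, searched as GAA, any 2 bases, TTC, any 2 bases and GAA, was in the windows of 0.662% of all genes with a promoter. In the window of Hsph1 its reverse complement lies 36 bases after the start, and a CAGCTG, also in capitals, lies before the start.

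Hsph1 (GRCm38.p6, chr5:149636287-149636586, minus strand): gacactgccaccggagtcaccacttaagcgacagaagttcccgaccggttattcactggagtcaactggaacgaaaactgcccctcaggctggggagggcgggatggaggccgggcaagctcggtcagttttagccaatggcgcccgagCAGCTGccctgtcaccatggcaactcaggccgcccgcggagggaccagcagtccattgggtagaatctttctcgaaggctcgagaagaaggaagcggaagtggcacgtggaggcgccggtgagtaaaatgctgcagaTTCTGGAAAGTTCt

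Lists for the handling of protons, bicarbonate and lactate held 0 or 1 call each, where 0.983% of all genes tested were called. Of 21 tested carbonic anhydrases, bicarbonate transporters and sodium-proton exchangers 1 was called, Slc4a2, which exchanges chloride for bicarbonate. It stood at 24.3, 24.5 and 22.8 TPM under CO2 and 16.4, 17.03 and 16.05 TPM with lactic acid (0.51 ± 0.07, adjusted p = 0.0327), with controls 2 and 3 at 30.3 and 29.3 TPM, above both. The surface carbonic anhydrase Car9 was at 14.1, 14.2 and 13.1 TPM against 10.6, 11.2 and 11.05 TPM (0.31 ± 0.07, adjusted p = 0.0992). The bicarbonate importer Slc4a7 was at 36.4, 42.0 and 37.1 TPM against 48.1, 45.2 and 42.8 TPM (-0.23 ± 0.08, adjusted p = 0.206).

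In the lactate list 9 of 18 genes were high enough to test and 0 were called by limma (3 at an unadjusted p under 0.05). The transporter Slc16a1, known as MCT1, was at 161, 206 and 148 TPM against 183, 180 and 130 TPM, a difference of 0.07 with a 95% confidence interval of -0.34 to 0.47 and an adjusted p of 0.898. The glycolytic exporter Slc16a3, MCT4, lay at no more than 0.416 TPM, and the lactate receptor Hcar1 was at 0 in all 6 libraries. Ldha was at 724, 795 and 648 TPM against 626, 632 and 451 TPM (0.35 ± 0.15, adjusted p = 0.304). Among 15 genes of the insulin-like growth factor axis, with 0 calls by limma and 4 at an unadjusted p under 0.05, Igfbp5 had its highest lactic acid value in lactic acid 3, at 274, 264 and 249 TPM against 86.2, 90.5 and 171 TPM (1.25 ± 0.25, adjusted p = 0.0634). Without that library its adjusted p was 0.000843, and 3 members of the list were higher, where 1.31% of all genes were.

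Metabolic lists held 0 or 1 call each, where 0.983% of all genes tested were called. Over all genes 15.5% lay with CO2 above and 8.85% with CO2 below. Of 37 glycolysis and hypoxia-responsive genes Ero1l, an ER oxidase, was the 1 called, at 128, 137 and 135 TPM against 181, 177 and 177 TPM (-0.42 ± 0.06, adjusted p = 0.0438), while 12 members lay with CO2 above and 9 with CO2 below. Of 28 cholesterol genes limma called 0, with 5 at an unadjusted p under 0.05 and with 7 above and 0 below. The demethylase Cyp51 was at 29.0 to 32.4 against 25.8 to 26.4 TPM (0.22 ± 0.07, adjusted p = 0.17), and the fatty acid synthase Fasn at 66.8 to 77.0 against 57.4 to 58.0 TPM (0.33 ± 0.07, adjusted p = 0.0794). Cp, the ferroxidase ceruloplasmin, was the 1 of 21 iron genes called, at 10.2, 12.5 and 9.002 TPM against 2.21, 3.02 and 4.63 TPM (1.46 ± 0.22, adjusted p = 0.0438). It was also the 1 higher of 19 reactive astrocyte markers, in which Cd109, a surface protein that restrains TGF-beta, was the 1 lower at 133, 137 and 136 TPM against 194, 202 and 213 TPM (-0.58 ± 0.06, adjusted p = 0.0208).

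Lists of growth and respiration genes also held 0 or 1 call each with all 6 libraries, where 0.983% of all genes tested were called. Of 49 replication genes 1 was called, the cyclin Ccne2, at 62.5, 59.1 and 69.7 TPM against 44.6, 47.1 and 44.3 TPM (0.48 ± 0.08, adjusted p = 0.0496). Its adjusted p was 0.0507 without lactic acid 3 and 0.0725 with median-of-ratios scaling. Limma called 0 of 42 mitosis genes, 43 nuclear respiratory chain genes, 34 genes of the citric acid cycle, 31 proteasome subunits, 70 ribosomal protein genes and 13 mitochondrial mRNAs, and these lists had medians of -0.01, 0.02, -0.02, -0.04, -0.07 and 0.02. In that order 1, 0, 3, 2, 0 and 0 of them had an unadjusted p under 0.05. With median-of-ratios scaling the medians of the nuclear respiratory chain and of the mitochondrial mRNAs changed sign, both to -0.02. Without lactic acid 3 the medians in the same order were -0.04, -0.18, -0.11, -0.20, -0.33 and 0.21. In that setting 1 proteasome and 1 ribosomal protein gene were called lower, where 0.941% of all genes were. The ribosomal median was 0.05 to 0.08 without CO2 3, lactic acid 1 or lactic acid 2. The p53 list had 1 call of 23, the kinase Plk2, at 61.8 to 68.7 against 87.0 to 91.5 TPM (-0.43 ± 0.07, adjusted p = 0.0483).

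Leaving out lactic acid 3 changed the count of calls in further lists described above. Over all genes 1.31% were then higher and 0.941% lower, and the numbers tested in each list are those given above. The calls then numbered 1 higher and 3 lower among the matrix genes, 2 lower in the YAP and TAZ list, 1 higher and 1 lower among lysosomal genes, and the same among iron genes, proton-sensing genes and glycolysis and hypoxia genes. They numbered 2 higher and 2 lower among reactive astrocyte markers, 2 higher and 1 lower among ER chaperones, and 2 higher among heat shock genes. There was 1 call higher in each of the lactate, cholesterol and class I antigen presentation lists, and 2 were lower in the p53 list.

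**Figure D5:**
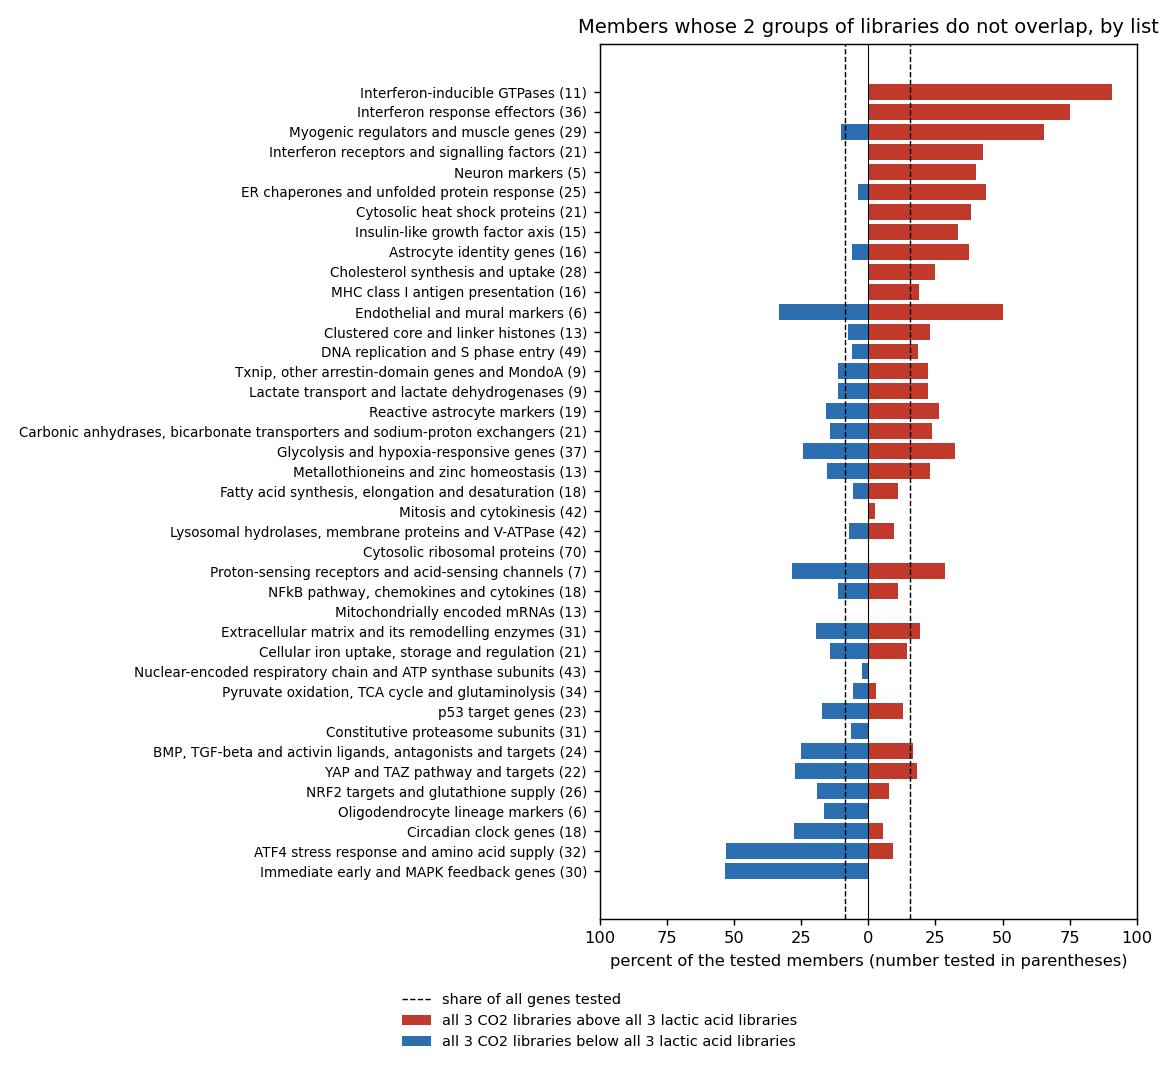
Percent of the tested members of each list with all 3 CO2 libraries above (red, right) or below (blue, left) all 3 lactic acid libraries, with the number tested in parentheses and dashed lines at the shares over all genes, 15.5% and 8.85%. The interferon GTPase, interferon effector and myogenic lists reach farthest right, and the immediate early and ATF4 lists farthest left.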

How the data were processed

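RNA of C8-D1A cells was measured by RNA sequencing in 12 libraries, 3 in each of 4 groups, and the 3 CO2 and 3 lactic acid libraries were compared. Values are TPM per gene, as the authors deposited them. Per the submitters' processing notes, fastp 0.22.0, HISAT2 2.1.0 and the GRCm39 build were used. Which program counted reads, with which gene models and whether by strand, is not given in the sources used here, so antisense, overlapping and near-identical genes are uncertain. TPM keep no depth, so the depth is unknown and no counting interval is given.

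Gene symbols came from GENCODE M21, which named 21851 of the 21959 gene identifiers, and promoters from RefSeq (GRCm38.p6). From the deposited TPM, log2(TPM + 1) was computed for every gene that reached 1 TPM in 3 or more of the 6 libraries. This scale understates the change of low genes. limma 3.58.1 (R 4.3.3) was fitted to these 6 libraries with an eBayes trend and no covariate, and two-sided p-values were Benjamini-Hochberg adjusted over all genes tested. Python 3.11.15 with SciPy 1.17.1 gave exact permutation tests of summed TPM. The fitting was tested on simulated data.

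The comparison, the 42 gene lists and the rule for named genes were chosen with earlier results of these data known. The rule took the 15 highest and 15 lowest differences called with at least 5 TPM in a group mean and a proper gene name, up to 4 members called in each direction per list (or the 2 most abundant where none was called), a panel of 31 genes, of which 29 were tested, and the 5 most abundant genes. Of the 115 genes so named, those the results turn on are described, and a few others were added after their values were seen, as stated there. Alternatives changed the pseudocount, the filter, the scaling, the libraries and the estimate of spread, added a replicate block, and left out each library in turn. Leaving out both libraries numbered 3 was added after seeing the data. A few items are not reported here.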

Additional observations from a re-analysis of the deposited data

How the results depend on the processing

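Against 118 genes called (74 higher under CO2, 44 lower, 30 with a difference of at least 1), no filter on low values gave 32 (19, 13 and 14), with 17243 genes tested. Median-of-ratios scaling gave 263 (132 higher, 131 lower), quantile normalization 242 (124 and 118), and correction for transcript length within each library 263 (146 and 117). Without mitochondrial and the 10 most abundant other genes, 115 were higher. Without the trend in the spread 27 were lower. With 12 libraries the counts were 41 (34 and 7), with 11 they were 575 (371, 204 and 55), and with the 9 treated libraries 363 (230, 133 and 53). Leaving out each library in turn gave 0 to 270 in all, 0 to 157 higher, 0 to 113 lower and 0 to 50 with a difference of at least 1. Leaving out both libraries numbered 3, chosen after seeing the data, gave 448 (299, 149 and 72) and held 116 of the 118. Beyond fewer libraries or more genes tested, the cause was not tested.

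With a replicate block 724 genes were called (475 higher, 249 lower, 55 with a difference of at least 1), all 118 among them. Deviations of same-numbered libraries correlated at -0.01, 0.35 and 0.50. Differently numbered libraries reached 0.40 (CO2 2 with lactic acid 1) and -0.48 (CO2 2 with lactic acid 3). These values do not settle whether the numbers pair the samples. The fit without the block was made the main one before the fits were compared.

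Of 73 genes described, 45 of them called, the difference changed sign only for Slc16a1. It ranged from -0.091 without lactic acid 3 to 0.17 without CO2 3, and was -0.070 without CO2 2. The medians of the interferon effector, interferon GTPase, myogenic, immediate early and amino acid response lists kept their sign in every alternative. Under the scalings by median of ratios and by quantiles 2 and 4 of the 45 calls were lost, and with no filter 25. Low depth cannot be judged from TPM, and 3 libraries per group limit the precision.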
